A study of Mus musculus with 6 samples.

Results

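CD200 and the CD200 receptors form a small family of cell-surface proteins of the immunoglobulin superfamily, and the values below describe their genes in natural killer (NK) cells of the mouse thymus with and without Tcf7. The product of Tcf7 is TCF-1, which regulates transcription in T cells and innate lymphocytes. The 5 genes Cd200, Cd200r1, Cd200r2, Cd200r3 and Cd200r4 were taken from the deposited table by matching its Entrez gene IDs to these symbols. All 5 were found among the 26332 genes of the table. They were chosen on the difference between knockout and wild-type cells in these same libraries, so that difference is given for them as a description, with no test.

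The study compared thymic NK cells of 4 wild-type (WT) mice and 2 Tcf7 knockout (KO) mice, each library coming from an individual mouse of C57BL/6 background. The labels do not state how the Tcf7 gene was disrupted, nor the age of the mice. WT 1, WT 3 and KO 1 were male, and WT 2, WT 4 and KO 2 were female. In both genotypes the sorted cells carried NK1.1 and NKp46, did not bind CD1d tetramer, and lacked the surface T cell proteins TCRbeta, CD3 and CD8.

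CD200 is a membrane glycoprotein of many lymphoid and non-lymphoid cells, and its receptor CD200R1 is an inhibitory receptor best known on myeloid cells, mast cells and some lymphocytes. CD200R1 has no ITIM and works through the adaptor Dok2 and RasGAP, which dampen Ras and MAP kinase signalling. The mouse also carries related receptor genes with short cytoplasmic tails. Of these, CD200R3 and CD200R4 pair with the adaptor DAP12 (gene Tyrobp), which carries an ITAM and recruits the kinase Syk.

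The family lies on mouse chromosome 16, and all positions here are on the GRCm38.p6 build. Cd200r1 (Entrez 57781) spans 44765736 to 44794977, Cd200r4 (Entrez 239849) spans 44811650 to 44839150, and Cd200r2 (Entrez 271375) spans 44867097 to 44915840. Cd200r3 (Entrez 74603) spans 44943596 to 45058365. These 4 receptor genes follow each other on the plus strand. Cd200 itself (Entrez 17470) lies on the minus strand at 45382111 to 45409060, 324 kb past the end of Cd200r3. The 5 genes together span 643 kb.

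The receptor genes are near copies of each other in part, which bears on how reads are counted. Their longest identical runs inside coding sequence of both genes are shown first for this reason, read from GENCODE M21 transcripts of the same build, 5′ to 3′ on the plus strand. All bases match, so none is in capitals. The first run is 88 bases long and lies in Cd200r1 at chr16:44789689-44789776 and in Cd200r4 at chr16:44833000-44833087. The second is 110 bases long and lies in Cd200r4 at chr16:44833331-44833440 and in Cd200r2 at chr16:44909521-44909630.
Cd200r1 and Cd200r4: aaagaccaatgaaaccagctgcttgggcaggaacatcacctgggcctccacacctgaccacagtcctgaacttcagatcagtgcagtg
Cd200r4 and Cd200r2: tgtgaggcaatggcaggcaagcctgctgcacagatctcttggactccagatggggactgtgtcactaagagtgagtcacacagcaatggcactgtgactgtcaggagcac

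A read that lies wholly inside such a run cannot be given to 1 of the genes from its letters. The longest run shared by Cd200r1 and Cd200r2 was 47 bases. Over the best local alignment of the transcripts, Cd200r1 and Cd200r4 were 93.4% identical over 639 positions. Cd200r1 and Cd200r2 were 91.2% identical over 570 positions, and Cd200r4 and Cd200r2 86% over 1134 positions. Cd200r3 was the most distant receptor, at 70.1% identity to Cd200r4, 71.7% to Cd200r2 and 70.2% to Cd200r1. The exactly shared part was nevertheless small. Of all 75-base stretches of a gene's transcripts, 0.77% in Cd200r1, 2.45% in Cd200r4, 2.15% in Cd200r2 and 2.04% in Cd200r3 also occurred in another gene's transcripts, and none did in Cd200. For Cd200r3 none of those stretches was shared with the family. With 50-base stretches the shares were 2.17% in Cd200r1, 4.94% in Cd200r4, 4.35% in Cd200r2 and 3.14% in Cd200r3. The 3 counts of Cd200r1, Cd200r4 and Cd200r2 are therefore uncertain where reads fell in shared stretches.

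RefSeq promoter windows, from 250 bases before to 50 after a start site, matched 4 of the 5 genes. They are given because Tcf7 encodes a transcription factor. The 250 bases before the start site of Cd200r2, the member with the largest difference below, lie at chr16:44866847-44867096 on the plus strand. Capitals mark a T-box word at -149 to -142 and a RUNX word at -75 to -70 from the start site.
Cd200r2: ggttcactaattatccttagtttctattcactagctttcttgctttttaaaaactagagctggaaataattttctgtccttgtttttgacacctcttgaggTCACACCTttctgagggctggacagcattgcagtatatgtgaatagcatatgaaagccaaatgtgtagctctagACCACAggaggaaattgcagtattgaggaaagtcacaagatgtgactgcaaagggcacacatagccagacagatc

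Upstream of Cd200r4 and Cd200r3 the windows held a shared stretch. It is shown because these are the 2 receptors that pair with DAP12. The 99 bases lie at chr16:44820621-44820719 for Cd200r4 and chr16:44943497-44943595 for Cd200r3, both on the plus strand, and capitals mark the 13 positions at which they differ. The Cd200r4 stretch lies inside the annotated span of the gene and the Cd200r3 stretch ends just before its gene.
Cd200r4: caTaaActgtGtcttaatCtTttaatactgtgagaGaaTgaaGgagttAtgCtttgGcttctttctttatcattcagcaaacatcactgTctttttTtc
Cd200r3: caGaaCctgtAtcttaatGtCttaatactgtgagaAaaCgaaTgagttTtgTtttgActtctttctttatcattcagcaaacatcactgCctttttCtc

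In full, the like stretch aligned over 156 positions at 89.7% identity. Both strands were searched for the word CTTTGAA, the word CTTTGAT, the word CTTTGTA and the word CTTTGTT for TCF/LEF factors, AGGTGTGA for T-box factors, TGTGGT for RUNX factors and TGANTCA for AP-1. Of 32851 RefSeq windows of 300 bases, 16.9% held a TCF/LEF word, 1.28% the T-box word, 16.8% the RUNX word and 7.81% the AP-1 word. Cd200r3 held a TCF/LEF word at positions 19 to 25 after its start site, and Cd200r2 held the T-box and RUNX words shown above. No word was found in the windows of Cd200r4 and Cd200, which says only that these letters are not in those windows.

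The libraries held 16418910 to 31155303 counts, and levels are given as CPM, which are counts scaled to the total of each library with TMM factors. A floor of 3 counts corresponded to 0.0989 to 0.180 CPM, and floors and intervals cover counting error only. Tcf7 itself was at 943, 947, 811 and 880 CPM in the WT libraries and at 268 and 452 CPM in the KO libraries. It fell by 1.35 on the log2 scale (SE 0.17, adjusted p = 0.00294, edgeR), with no overlap, but reads of the gene were still present in both KO libraries. All 10 NK cell genes checked were counted in every library, and their summed level was 14318 to 15049 CPM in WT, 14344 CPM in KO 1 and 12284 CPM in KO 2. These genes were not all unchanged, since edgeR called 2 of the 10 lower, beside 5.58% of all 13652 genes tested. Of the 10, 9 had a log2 fold change below 0. DESeq2 called 5 of them lower and 1 higher, and limma voom called 3 lower. Eomes, a T-box factor of NK cells, was at 930, 928, 913 and 800 CPM in WT and 295 and 140 CPM in KO (-2.11, SE 0.22, adjusted p = 0.00159), and Klrb1c, the gene of NK1.1, fell by 0.48 (SE 0.09, adjusted p = 0.0149). In bulk samples like these, more cells of a type and more RNA per cell cannot be told apart.

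Cd200r1, the inhibitory receptor, was a low-level transcript in WT thymic NK cells and one of the abundant receptors of the family in KO cells. It was at 3.16, 5.83, 9.66 and 6.18 CPM in WT 1 to WT 4 and at 91.2 and 132 CPM in KO 1 and KO 2. Both KO libraries lay far above every WT library, and WT 3 was the highest of WT. Cd200r1 averaged 6.21 ± 2.67 CPM (SD, n = 4) in WT, against 111 ± 28.5 CPM (SD, n = 2) in KO, a log2 fold change of 4.17 (SE 0.35). Against the mean of the WT libraries of the same sex, the level was 14.2 times as high in the male KO library and 21.9 times in the female one. These values rest on 78 to 177 counts per WT library and on 1574 and 3542 counts in the KO libraries.

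Cd200r4, a receptor of the DAP12-paired kind, was the most abundant member in WT cells and was higher by a similar factor in each KO mouse. Its level was 40.4, 40.7, 40.7 and 31.3 CPM in WT and 76.5 and 81.0 CPM in KO. WT 4 stood below the other 3 WT libraries, and the KO libraries lay above all of them. Cd200r4 averaged 38.3 ± 4.64 CPM (SD, n = 4) in WT, against 78.7 ± 3.18 CPM (SD, n = 2) in KO, a log2 fold change of 1.04 (SE 0.13). The ratio to WT of the same sex was 1.89 in males and 2.25 in females.

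Cd200r2, a further close relative, showed the largest fold difference of the family. It was at 0.648, 1.85, 1.38 and 1.53 CPM in WT, from 16 to 56 counts per library, and at 31.2 and 53.6 CPM in KO, from 538 and 1443 counts. The groups did not overlap, and WT 1 and KO 1 were the lowest of their groups. Cd200r2 averaged 1.35 ± 0.508 CPM (SD, n = 4) in WT, against 42.4 ± 15.8 CPM (SD, n = 2) in KO, a log2 fold change of 4.98 (SE 0.26). Here the ratios to same-sex WT were nearly equal, 30.8 in males and 31.7 in females.

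Cd200r3, the other DAP12-paired receptor, was at the floor in most libraries. It had 0 counts in WT 1, WT 2, WT 3 and KO 1, 4 counts in WT 4 (0.161 CPM) and 69 counts in KO 2 (2.56 CPM). KO 1 lay within the WT range, so the groups overlapped and the KO level rests on KO 2 alone. The gene failed the filter on low counts and was not tested.

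Cd200, the ligand, was scarce in all libraries and lay at opposite ends of the WT range in the 2 KO mice. It was at 0.202, 0.692, 0.480 and 1.45 CPM in WT, at 1.45 CPM in KO 1 (25 counts) and at 0 in KO 2 (0 counts). KO 1 was level with the highest WT library, WT 4, and KO 2 was below all WT libraries, so the groups overlapped. Cd200 averaged 0.707 ± 0.537 CPM (SD, n = 4) in WT, against 0.724 ± 1.02 CPM (SD, n = 2) in KO, a log2 fold change of 0.01 (SE 1.91). KO 1 was 4.25 times the mean of the male WT libraries. KO 2 was at least 9.63-fold lower than the mean of the female WT libraries, 1.07 CPM, taken against a floor of 3 counts in KO 2. Without KO 2 the fitted log2 fold change was 2.09, and without KO 1 all counts left in KO were 0.

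**Figure D1:**
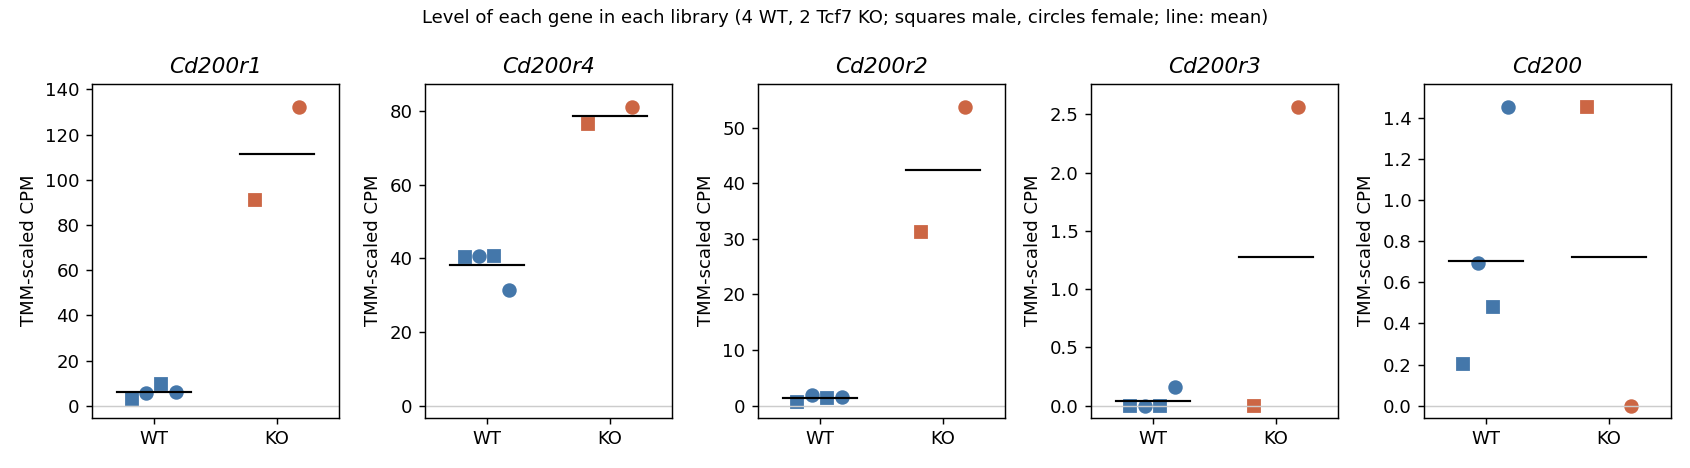
TMM-scaled CPM of the 5 family genes in each of the 4 WT (blue) and 2 Tcf7 KO (red) libraries, 1 panel per gene with its own axis; squares are male mice, circles female mice and lines group means. For Cd200r1, Cd200r4 and Cd200r2 both KO libraries lie above all WT libraries, the Cd200r3 signal is in KO 2, and the KO libraries of Cd200 lie at 1.45 and 0 CPM.

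Of the 5 genes, 4 passed the filter on low counts. The groups did not overlap for 3 of the 5 genes, and for 39.3% of all tested genes. Because the members were chosen on this contrast, nothing is read from that count, and no call is given for them.

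Levels of different genes are comparable only per length, so CPM were divided by the deposited gene lengths, which run from 1700 bases for Cd200r4 to 2347 bases for Cd200. On this scale of CPM per kb, Cd200r4 led in WT at 22.5 ± 2.73 (SD, n = 4), followed by Cd200r1 at 3.28 ± 1.41. Below them came Cd200r2 at 0.772 ± 0.290, Cd200 at 0.301 ± 0.229 and Cd200r3 at 0.0183 ± 0.0366. The WT ranges of Cd200r2 (0.370 to 1.05) and Cd200 (0.0862 to 0.619) overlapped, so this pair had no clear order, while Cd200r4 and Cd200r1 stood apart from every gene below them.

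In KO cells the order changed at the top. Cd200r1 was at 48.2 and 69.6 CPM per kb, Cd200r4 at 45.0 and 47.6, and Cd200r2 at 17.8 and 30.6. Cd200r1 and Cd200r4 were neighbours in that order that differed by less than the SD of Cd200r1, 15.1 CPM per kb (n = 2). Cd200r2 lay below both in each library, and Cd200r3 and Cd200 stayed low, at means of 0.581 ± 0.821 and 0.309 ± 0.437 CPM per kb (SD, n = 2). The summed level of the 4 receptor genes was 25.8, 28.1, 29.8 and 22.6 CPM per kb in WT and 111 and 149 in KO.

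The make-up of the receptor family also differed between the genotypes. Cd200r4 held 91.4% of the counts of the 4 receptor genes in WT 1 (95% Wilson interval 89.6 to 92.9), 84.1% in WT 2 (82.2 to 85.9), 78.7% in WT 3 (75.8 to 81.3) and 79.9% in WT 4 (77.3 to 82.3). In KO 1 its share was 38.5% (36.8 to 40.1) and in KO 2 30.1% (29.1 to 31.2). The share of Cd200r4 was thus the larger part of the family in each WT library and less than that of Cd200r1 in each KO library.

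Cd200r1 held 7.14%, 12.0%, 18.7% and 15.8% of the receptor counts in WT 1 to WT 4, and 45.9% (44.2 to 47.5) and 49.0% (47.8 to 50.1) in KO 1 and KO 2. For Cd200r2 the shares were 1.47%, 3.81%, 2.67% and 3.91% in WT, and 15.7% (14.5 to 16.9) and 19.9% (19.0 to 20.9) in KO. Cd200r3 never reached 1% of the receptor counts, with 0.412% in WT 4 and 0.954% in KO 2. The WT libraries differed among themselves by more than counting error, WT 1 having the smallest shares of Cd200r1 and Cd200r2.

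Ratios within a library, which do not depend on scaling, showed unequal changes. Per length, Cd200r1 stood to Cd200r4 at 0.0703, 0.129, 0.213 and 0.177 in WT and at 1.07 and 1.46 in KO. The ratio of Cd200r2 to Cd200r4 was 0.0156, 0.0440, 0.0330 and 0.0476 in WT and 0.396 and 0.643 in KO. For both ratios the KO libraries lay above all WT libraries. By contrast, the ratio of Cd200r1 to Cd200r2 was 4.51, 2.93, 6.48 and 3.73 in WT and 2.71 and 2.27 in KO, so this ratio stayed between 2.27 and 6.48 in all 6 libraries, with both KO libraries just below the lowest WT library.

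**Figure D2:**
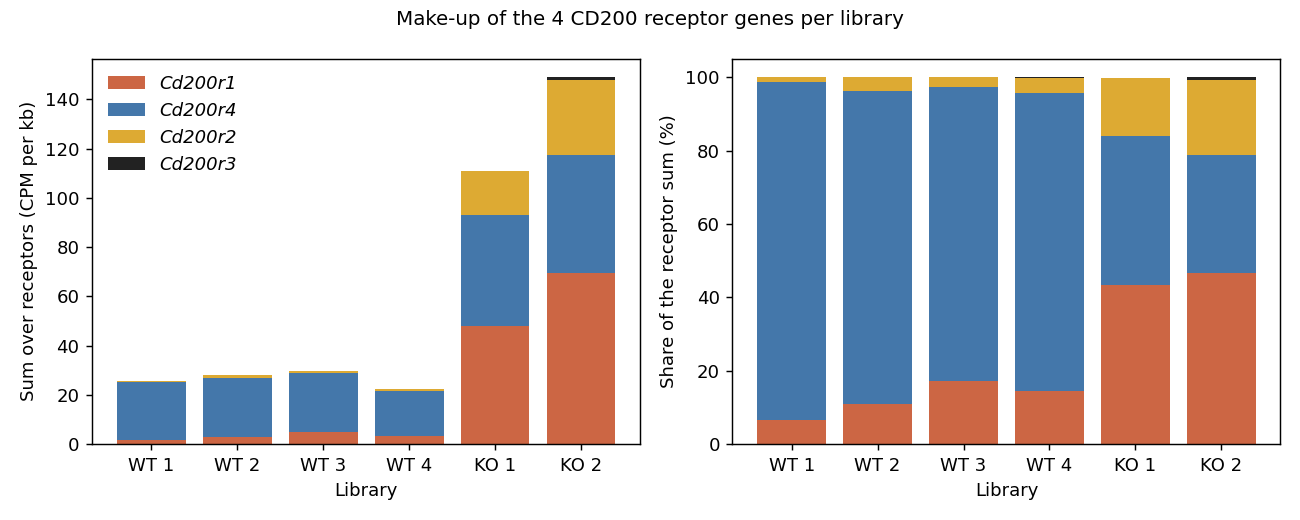
Make-up of the 4 CD200 receptor genes in each library, as stacked CPM per kb of deposited gene length (left) and as the percent of the receptor sum on that scale (right). The sum is 22.6 to 29.8 CPM per kb in WT and 111 and 149 in the KO libraries, and Cd200r4 gives most of it in WT while Cd200r1 gives the largest part in both KO libraries.

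Sex was taken from the labels and played no part in the choice of the genes, so it could be tested. The labels were not checked against sex-linked genes. Over all 13652 genes edgeR called 0 genes between the sexes at an adjusted p under 0.05, with 866 at an unadjusted p under 0.05, while DESeq2 called 28 and limma voom 0. Cd200r2 was 0.79 higher in females on the log2 scale (SE 0.26, unadjusted p = 0.0179), which did not pass the adjustment (adjusted p = 0.759, with a range of 0.381 to 1.00 over the alternatives). Its mean was 11.1 ± 17.4 CPM in males and 19.0 ± 30.0 CPM in females (SD, n = 3 each, both genotypes together), a spread set by genotype. The male libraries were below the female ones within each genotype, at 0.648 and 1.38 CPM against 1.85 and 1.53 CPM in WT and at 31.2 CPM against 53.6 CPM in KO.

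Of the other tested members, Cd200r1 and Cd200r4 showed smaller fitted differences between the sexes. The SE of Cd200 was too large to rank its difference. Female minus male, the log2 difference was 0.17 for Cd200r1 (SE 0.35, adjusted p = 0.931), -0.08 for Cd200r4 (SE 0.13, adjusted p = 0.904) and 0.02 for Cd200 (SE 1.76, adjusted p = 0.997). None of these passed the edgeR test. Cd200r3 was not tested between the sexes. It had 0 counts in every male library, and its mean was 0.908 ± 1.44 CPM in females (SD, n = 3, both genotypes together). The female counts were 0 in WT 2, 4 in WT 4 and 69 in KO 2.

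Whether the knockout difference itself differed between the sexes was tested with a product term, which left 2 residual degrees of freedom. edgeR called 0 of 13652 genes, with 1368 at an unadjusted p under 0.05, while DESeq2 called 128 and limma voom 0. For Cd200r1 the term was 0.58 (SE 0.73, adjusted p = 0.816), for Cd200r4 0.25 (SE 0.26, adjusted p = 0.777) and for Cd200r2 -0.02 (SE 0.44, adjusted p = 1.00). Cd200 had an unadjusted p of 0.00741 and an adjusted p of 0.374 (0.104 to 0.660 over the alternatives that gave one). That term rests on the 0 counts of KO 2, so its fitted size is not a measured size. With 1 KO mouse of each sex, sex and individual mouse cannot be told apart in KO.

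The neighbours on chromosome 16 were examined over 1 Mb on each side of the 5 genes. Of 32 other genes that start in this window, 21 were tested, 3 were called higher at an adjusted p under 0.05 (edgeR), 1 lower and 17 neither, and 9 had no count in any library. Of all 13652 genes tested, 13.7% were called in either direction, 8.13% higher and 5.58% lower, so with 21 genes these counts lie near the share over all genes. With library-size scaling in place of TMM, 1336 of 1859 called genes were higher, against 1110 of 1872. The median log2 fold change of the tested neighbours was 0.22, beside 0.02 for all tested genes. Gm609, a relative of the ligand gene next to Cd200, had 0 counts in all 6 libraries.

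The neighbour that changed most was Ccdc80, which encodes a secreted protein of the extracellular matrix and starts 35.0 kb after the end of Cd200r3 (chr16:45093407-45127924). It was at 0.202, 0, 0.240 and 0.0404 CPM in WT, from 0 to 5 counts per library, and at 21.3 and 40.1 CPM in KO, from 368 and 1079 counts. The KO libraries lay far above WT, where the gene was near the floor. Fitted on the log2 scale the rise was 8.10 (SE 0.64, adjusted p = 5.10e-04), and its size depends on very few WT counts: it was 10.74 without KO 1 and 6.57 without KO 2. From the start of Cd200r1 to the end of Ccdc80, 362 kb, the table held 5 genes. Ccdc80 is the single one of them that the choice of members did not fix.

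Past Ccdc80 the next genes did not pass the test. Slc35a5, a nucleotide sugar transporter relative, was at 30.8 ± 5.63 CPM in WT and 40.2 ± 4.30 CPM in KO (log2 fold change 0.39, adjusted p = 0.223), and the autophagy enzyme gene Atg3 had a log2 fold change of 0.04 (adjusted p = 0.825). This pair was named after its values were seen. Btla, an inhibitory receptor of lymphocytes at chr16:45223705-45252895, lies between them and Cd200. It was at 3.16, 1.98, 0.840 and 1.94 CPM in WT and at 13.8 and 5.64 CPM in KO. Both KO libraries were above WT, by 2.18 on the log2 scale (SE 0.52, adjusted p = 0.0327). The call was lost when WT 1 (adjusted p = 0.0679), WT 2 (0.0556), KO 1 (0.289) or KO 2 (0.0583) was left out, and with the replicate block (0.0574). On the far side of Cd200, Gcsam, a germinal centre signalling gene, did not pass (log2 fold change 0.81, adjusted p = 0.308).

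Before Cd200r1, the nearest gene Gtpbp8, which encodes a GTP-binding protein (chr16:44738879-44746363), was at 6.88, 8.50, 10.5 and 6.58 CPM in WT and at 17.0 and 13.4 CPM in KO. Its groups did not overlap, with KO higher by 0.90 on the log2 scale (SE 0.24, adjusted p = 0.0452). That call did not hold when any single library was left out (adjusted p = 0.0645 to 0.218). Sidt1, a SID1 family membrane protein gene at chr16:44240177-44333212, was the neighbour that fell. Its level was 254, 274, 229 and 219 CPM in WT and 137 and 78.2 CPM in KO, lower in both KO libraries. It fell by 1.22 on the log2 scale (SE 0.21, adjusted p = 0.00959).

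**Figure D3:**
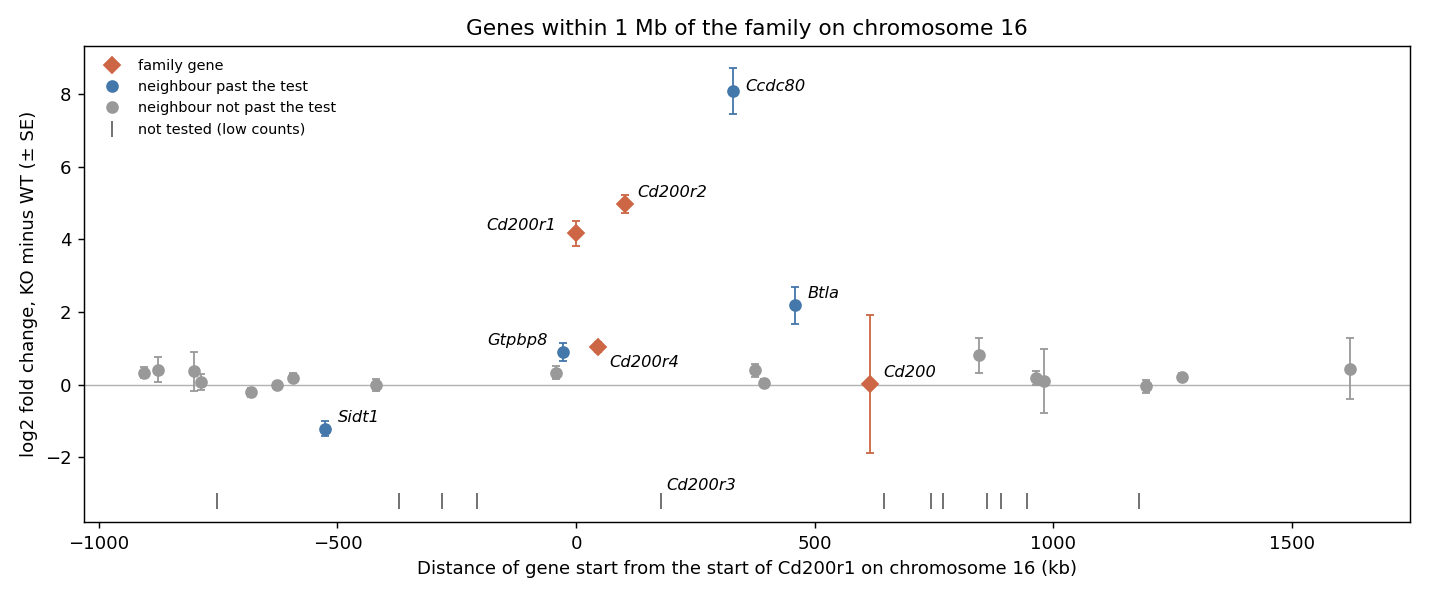
Log2 fold change (KO minus WT, with SE) of genes that start within 1 Mb of the family, by distance of the gene start from that of Cd200r1; diamonds are family genes, blue points neighbours past the test (edgeR, adjusted p under 0.05), grey points neighbours not past it, and ticks genes not tested. Cd200r1, Cd200r4, Cd200r2 and Ccdc80 lie above 0, with Cd200r3, not tested, between the last 2, and most of the tested neighbours lie near 0.

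The genes through which the receptors signal were taken as 2 lists, to be read beside the 13.7% called over all genes. In the list for inhibitory signalling of CD200R1, 0 of 5 tested genes passed edgeR's test, with 2 at an unadjusted p under 0.05, and DESeq2 and limma voom each called 1 higher and 1 lower. The median log2 fold change was -0.14, beside 0.02 over all genes tested. The most abundant of the 5, Inpp5d, which encodes the phosphatase SHIP-1, was at 460 ± 36.1 CPM in WT and 419 ± 80.8 CPM in KO (log2 fold change -0.14, adjusted p = 0.505). The 2 adaptor genes nearest the threshold, named after their values were seen, pointed in opposite directions. Dok1 was at 47.9, 46.0, 44.1 and 43.4 CPM in WT and 54.7 and 73.3 CPM in KO (log2 fold change 0.49, adjusted p = 0.0502). Dok2, the adaptor that CD200R1 recruits first, was at 258, 272, 286 and 308 CPM in WT and 226 and 153 CPM in KO (-0.58, adjusted p = 0.0525). Neither pair of groups overlapped, and neither gene passed the test.

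On the DAP12 route of the activating receptors, 1 of 8 tested genes rose, 3 fell and 4 did not pass, with a median log2 fold change of -0.23. Tyrobp, the DAP12 gene itself and the most abundant of the list, was at 662, 603, 638 and 718 CPM in WT and at 398 and 423 CPM in KO. Both KO libraries were below all WT libraries, and Tyrobp fell by 0.67 on the log2 scale (SE 0.10, adjusted p = 0.00610). The adaptor gene thus fell while the receptor gene Cd200r4 was higher. Plcg1, a phospholipase downstream of ITAM kinases, was the gene that rose, from 6.76, 11.2, 4.92 and 13.3 CPM to 41.0 and 44.6 CPM (log2 fold change 2.34, SE 0.24, adjusted p = 0.00140).

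Hcst, which encodes the adaptor DAP10, was at 118, 101, 115 and 118 CPM in WT and 78.0 and 76.6 CPM in KO (-0.54, SE 0.11, adjusted p = 0.0195). Syk, the kinase recruited by DAP12, was at 301, 275, 276 and 261 CPM in WT and 235 and 162 CPM in KO (-0.51, SE 0.12, adjusted p = 0.0360). In both genes the KO libraries lay below WT, but the calls were less firm. Hcst no longer passed when WT 1, WT 3, either KO library, or WT 3 and WT 4 together were left out, or with the replicate block (adjusted p = 0.0643 to 0.112 in these settings). Syk no longer passed when WT 1, WT 2, WT 3 or KO 2 was left out, with a log2 fold change of -0.30 in the last case (adjusted p = 0.222).

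Genes of other cell types that use this family moved with the KO libraries in part. For basophils and mast cells, which are known to carry CD200R3, the summed level was 180 to 290 CPM in WT, 169 CPM in KO 1 and 422 CPM in KO 2, most of it from Kit. Of the 10 genes, 3 were tested and 1, Hdc, was higher. Fcer1a, Ms4a2, Prss34, Gata2, Mcpt4 and Tpsb2 were counted in KO 2 alone, with 12 to 161 counts, and were at 0 in the 4 WT libraries and KO 1. Mcpt8 had 111 counts in KO 2 and at most 1 elsewhere, and Cpa3 had 334 counts in KO 2 against 16 to 46. Without Kit the list summed to 0.791 to 2.62 CPM in WT, 4.17 CPM in KO 1 and 39.4 CPM in KO 2. The 69 counts of Cd200r3 were in that same library. Cd200r1, Cd200r4 and Cd200r2 were high in both KO libraries. The part of these cells in the levels of Cd200r3 and of the other receptors was not tested.

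**Figure D4:**
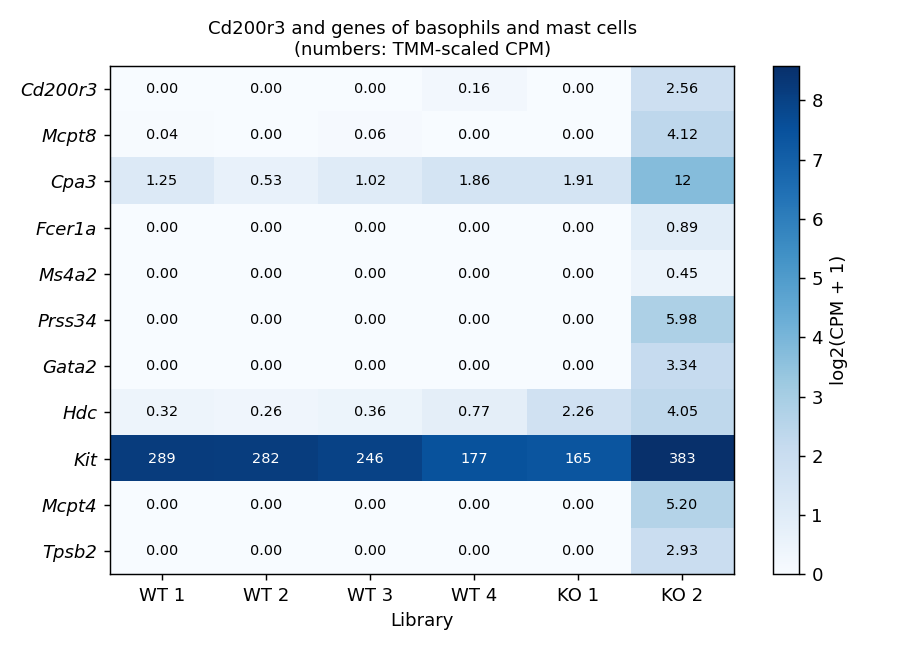
Cd200r3 and the 10 basophil and mast cell genes in the 6 libraries; each cell prints the TMM-scaled CPM and its colour is log2(CPM + 1). Cd200r3 is at 2.56 CPM in KO 2 and at 0 to 0.161 CPM elsewhere, and 6 of the 10 genes have counts in KO 2 alone.

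For myeloid cells, known for CD200R1, the summed level was 325 to 450 CPM in WT, 416 CPM in KO 1 and 446 CPM in KO 2, most of it from Itgam, which NK cells also express. Without Itgam the others summed to 5.42, 8.54, 15.1 and 82.0 CPM in WT, 69.3 CPM in KO 1 and 166 CPM in KO 2. WT 4 lay above KO 1 in this sum, of which Mpeg1 gave 50.2 CPM in WT 4 and 18.6 CPM in KO 1. By edgeR 0 of 9 tested genes were called higher (4 at an unadjusted p under 0.05, with 1 higher by DESeq2 and 4 by limma voom), while 8 of the 9 had a log2 fold change above 0 and the median was 3.22. Lyz2 was at 0.0405, 0.330, 6.48 and 14.7 CPM in WT and 36.4 and 70.3 CPM in KO. Csf1r was at 0 to 2.79 CPM in WT and 4.23 and 12.3 CPM in KO, and Adgre1 at 0 to 0.480 CPM in WT and 2.78 and 2.56 CPM in KO. Of the 10 genes, Cd14 and Cebpa were at 0 in KO 1 and none was at 0 in KO 2. The part of these cells in the levels of the receptor genes was not tested.

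Lymphocyte genes were also higher. The alpha-beta T cell list summed to 381 to 569 CPM in WT, 1680 CPM in KO 1 and 2175 CPM in KO 2, with 5 of 10 genes higher, a median log2 fold change of 1.93 and none at 0 in any library. The list of B cells, which are known to carry CD200, rose in 7 of 8 genes, from 10.1 to 18.4 CPM in WT to 218 CPM in KO 1 and 59.6 CPM in KO 2, with a median log2 fold change of 5.03. Cd200 was at 1.45 CPM in both KO 1 (25 counts) and WT 4 (36 counts) and at 0 in KO 2. The part of B cells in these levels was not tested. The ILC2 and ILC3 list rose in 5 of 8 tested genes (123 to 143 CPM in WT, 210 and 311 CPM in KO, median log2 fold change 3.08), with Il22 at 0 in all libraries and Areg at 0 in both KO libraries. Their part in the result was not tested.

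Of the remaining lists, gamma-delta T cell genes were higher in 2 of 4 tested (154 to 242 CPM in WT, 372 and 181 CPM in KO, Il17a at 0 throughout). The 2 were Sox13 and Blk, and Blk is also on the B cell list. Trdc and Trdv4 were not called (log2 fold change 0.37 and 0.25, adjusted p = 0.510 and 0.484, edgeR). Stroma and endothelium genes were higher in 5 of 8 (113 to 120 CPM in WT, 278 and 484 CPM in KO), and dendritic cell genes in 2 of 8 (897 to 963 CPM in WT, 945 and 746 CPM in KO). Without Pecam1 the stroma and endothelium list summed to 5.87 to 10.1 CPM in WT and 33.0 and 82.3 CPM in KO. Most of the dendritic sum came from Itgax. Without Itgax it was 76.0, 64.5, 69.4 and 142 CPM in WT and 116 and 222 CPM in KO. The 5 stroma and endothelium genes that rose were Krt8, Krt5, Pdgfrb, Epcam and Pecam1, with Pdgfrb at 0.162 to 0.969 CPM in WT and 6.14 and 33.8 CPM in KO. Of that list, Pdgfra, Col1a1 and Col1a2 were at 0 in KO 1 and Pdgfra in KO 2, and 2 to 6 genes were at 0 in each WT library. These too were not tested for a part in the levels of the family.

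For each tested member, the 3 genes with the most alike pattern over the 6 libraries were found among 10110 genes, by the root mean square distance between log2 CPM values centred on their mean. The distance is 0 for identical patterns. Because the genes were picked on these same values, a shared highest or lowest library is part of the choice and no further result. For Cd200r1 they were Psd2, an exchange factor for Arf6 (0.31), Serpinb1a, an inhibitor of neutrophil proteases (0.32), and Adam8, a membrane metalloprotease (0.34). Psd2 was at 3.44, 3.82, 6.36 and 3.75 CPM in WT and 53.7 and 110 CPM in KO, with WT 3 the highest of WT as for Cd200r1.

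The Cd200r2 pattern was nearest to Upp1, the gene of uridine phosphorylase (0.29), Grk3, a kinase of G protein-coupled receptors (0.34), and Rnase4, a secreted ribonuclease (0.47). Upp1 was at 2.47, 4.52, 4.32 and 4.12 CPM in WT and 101 and 237 CPM in KO, and like Cd200r2 it was lowest in WT 1. Cd200r4 was closest to Tdg-ps2, a pseudogene whose counts may be shared with its parent gene (0.07), Wdr11 (0.09) and the antiviral helicase gene Ddx60 (0.09), and Wdr11 was also lowest in WT 4 among WT. For Cd200 the nearest candidates were Chrne (0.88), Nr4a2 (0.94) and Gramd3 (0.96). Candidates had a mean log2 CPM of at least 2, so genes as scarce as Cd200 were not among them. The distance of Chrne was 1.37 with a prior count of 0.5. These distances are therefore not compared with those of the other members. With a prior count of 0.5 in place of 2, 3 of 3 named genes were shared for Cd200r1 and Cd200r4 and 2 of 3 for Cd200r2 and Cd200.

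The family values were recomputed under other scalings, filters, tools and sets of libraries. The log2 fold change ran from 3.86 to 4.66 for Cd200r1, from 0.91 to 1.16 for Cd200r4 and from 4.80 to 5.19 for Cd200r2. The value of Cd200 ran from -7.73 to 2.09, with the ends set by which of the 2 KO libraries was left out.

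**Figure D5:**
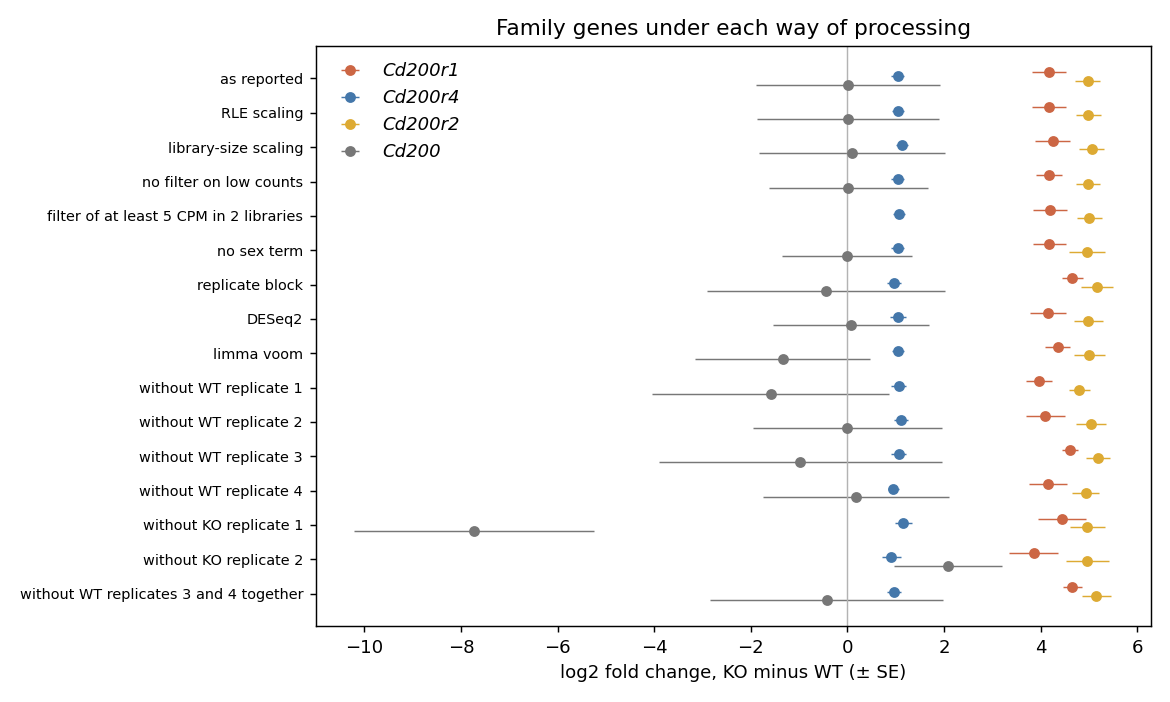
Log2 fold change (KO minus WT, with SE) of the 4 tested family genes as reported and under each alternative processing. Cd200r1, Cd200r4 and Cd200r2 stay on the right of 0 throughout, from 0.91 to 5.19, while Cd200 moves between -7.73 and 2.09; it was not tested under the filter of at least 5 CPM in 2 libraries.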

How the data were processed

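Libraries of sorted thymic NK cells were made by the authors from little RNA with the SMART-Seq v4 kit and sequenced paired-end, per the labels' protocols. The kit does not mark strand, so reads of overlapping or antisense genes cannot be told apart. The authors deposited unnormalized counts, whole numbers for each Entrez gene, beside a gene length in bases. They used featureCounts and mm10, per the submitters' processing notes. Not given in the sources used here are the aligner, any versions and the handling of reads that match several genes.

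RefSeq's table for GRCm38.p6 (equal to mm10) gave symbols for 25275 of 26332 gene IDs, and the other 1057 stayed in the tests. Counts were fitted with edgeR 4.0.16 in R 4.3.3 (TMM, filterByExpr, glmQLFit, glmQLFTest) with genotype and sex as additive terms. Over 13652 genes, Benjamini-Hochberg adjusted p-values under 0.05 made a call. Degrees of freedom were 3 residual and 4.50 prior, and edgeR's common dispersion gave a biological coefficient of variation of 0.239. The SE is the log2 fold change divided by the square root of F. CPM are TMM-scaled, and Wilson intervals are at 95%. The script was tested on simulated data. Sequences were aligned with biopython 1.88 (match 2, mismatch -3, gap opening -5, extension -2).

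The members and lists were chosen with earlier results of these data known. Named were Tcf7, the members, the called genes (up to 4) and the most abundant gene of each signalling list, the called neighbours within 1 Mb and the nearest tested ones, and the 3 most alike genes per member with a mean log2 CPM of at least 2. Alternatives were RLE and library-size scaling, omitting the filter, a filter of 5 CPM or more in 2 libraries, dropping sex, a replicate block, DESeq2 1.42.0, limma 3.58.1 voom, and leaving out libraries. One list of genes downstream of the receptors is not reported here.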

Additional observations from a re-analysis of the deposited data

Results flagged for a closer look

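Among 16 groups of 4 WT libraries examined for a library that stands apart, 2 had one, judged by its gap to the nearest other library over the range of the group (Dixon's test at the 95% level). For Cd200r4, WT 4 was the lowest WT library at 31.3 CPM, with a gap of 0.964 of the range; the other 3 lay within 40.4 to 40.7 CPM. For Cd200r3, WT 4 was the highest of WT at 0.161 CPM, the single WT library with a count. With the other WT libraries tied at 0, any count in WT 4 would have been marked, so nothing is read from this mark. At the 95% level chance alone marks about 1 in 20 groups, a rate that does not apply to tied values.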

How the results depend on the processing

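The count of genes called between KO and WT was 1872 as reported and 2955 with DESeq2, and 934 to 1908 when 1 library was left out (WT 1 left out gave 1002, WT 3 1022, KO 1 1015 and KO 2 934). For sex, 0 genes became 15 with no filter, 28 with DESeq2, 2 without WT 3 and WT 4 together, and 0 to 4 without 1 library. For the interaction, 0 became 91 with no filter, 128 with DESeq2, and 0 to 395 without 1 WT library (395 without WT 2, 205 without WT 4). It could not be fitted without a KO library, without WT 3 and WT 4 together, or with the block.

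The log2 fold change of Cd200 was -7.73 without KO 1 and 2.09 without KO 2, the lowest and highest values with 1 library left out; the former has only 0 counts in KO and is no measured size. Replicate numbers are shared by only 2 pairs, and the deviations of same-numbered libraries correlated at 0.132 (number 1) and -0.0478 (number 2). With 2 KO libraries, each WT library correlated with KO 1 and KO 2 at equal size and opposite sign. This check therefore cannot tell whether the numbers pair the mice. With the replicate block, 1341 genes were called, and the log2 fold changes were 4.66 for Cd200r1, 0.96 for Cd200r4, 5.16 for Cd200r2 and -0.44 for Cd200. Under the block the adjusted p was 0.104 for Gtpbp8, and the calls on Hcst and Btla were also lost. With library-size scaling the call on Syk was lost (0.0621), as it was without the sex term (0.0717). The cause of these differences was not tested. Limits lie in 2 KO mice, 1 of each sex, in amplified libraries without molecular identifiers, and in low counts, 0 to 36 per library for Cd200 and 0 to 69 for Cd200r3.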
